A study of Mus musculus with 12 samples.

Results

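The transcripts described here are 8 genes known from the choroid plexus, *Ttr*, *Enpp2*, *Kl*, *Folr1*, *Aqp1*, *Slc4a5*, *Clic6* and *Otx2*, as they were counted in RNA of CD11b-positive cells isolated from the mouse cerebral cortex. They were taken by name from 55487 genes in the count table, and 8 of 8 passed the filter on low counts that left 15425 genes for testing. The cells came from 12 male mice in 4 groups of 3, since each of the 2 strains had received either veh (PBS) or rh Bri2 BRICHOS R221E, a mutant of the chaperone domain of Bri2. WT mice were C57BL/6J. In *App*NL-G-F mice the endogenous *App* locus has a humanized amyloid-β stretch and the Swedish, Iberian and Arctic mutations knocked in. Injections of 10 mg/kg protein or of PBS went into the vein over 12 weeks, 24 in all, from 9 months of age, and the cells were taken 4 weeks after the last one. Cortical tissue was digested with papain, cleared of debris on a density gradient and passed over anti-CD11b magnetic beads, so the choroid plexus itself was not the labelled tissue.

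The choroid plexus hangs in the brain ventricles and consists of a single layer of cuboidal epithelial cells around a leaky vascular core. Its epithelium makes most of the cerebrospinal fluid by moving ions and water from blood into the ventricle, and it secretes carrier proteins and enzymes into that fluid. The homeobox factor *Otx2* is needed for its development and upkeep. The epithelium itself is not a CD11b-expressing cell type, whereas macrophages on and in the plexus are.

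Libraries held 12433402 to 17889654 counts, and 3 counts, taken as the smallest detectable level, corresponded to 0.169 to 0.226 CPM (counts scaled to a common library size with TMM factors). The labelled cell type was well represented in every library, since 8 microglial markers summed to 23120 to 29160 CPM. Summed over the 8 choroid plexus transcripts, the level was 942 to 9217 CPM, or 0.0824% to 0.998% of a library's counts. *Ttr* and *Enpp2* made up most of this. A higher bulk level of a cell type's transcripts can stand for more cells of that type or for more RNA per cell, and these cannot be told apart here.

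The 8 transcripts split the libraries in the same way, and that split only partly followed the treatment groups. The highest library was mouse 3 of the rh Bri2 BRICHOS R221E-treated WT group for 8 of 8 genes. The 3 treated WT mice and mouse 3 of the veh-treated WT group were the 4 highest libraries for every one of the 8, and mouse 3 of the veh-treated *App*NL-G-F group came next. The other WT veh mice, 1 and 2, lay within the range of the 6 *App*NL-G-F mice for each gene. In 3 of the 4 groups, all but treated *App*NL-G-F mice, the mouse numbered 3 was the highest of its group for 8 of 8 genes, and in that group for 6 of 8. The labels do not say whether equal numbers mark mice handled together.

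**Figure D1:**
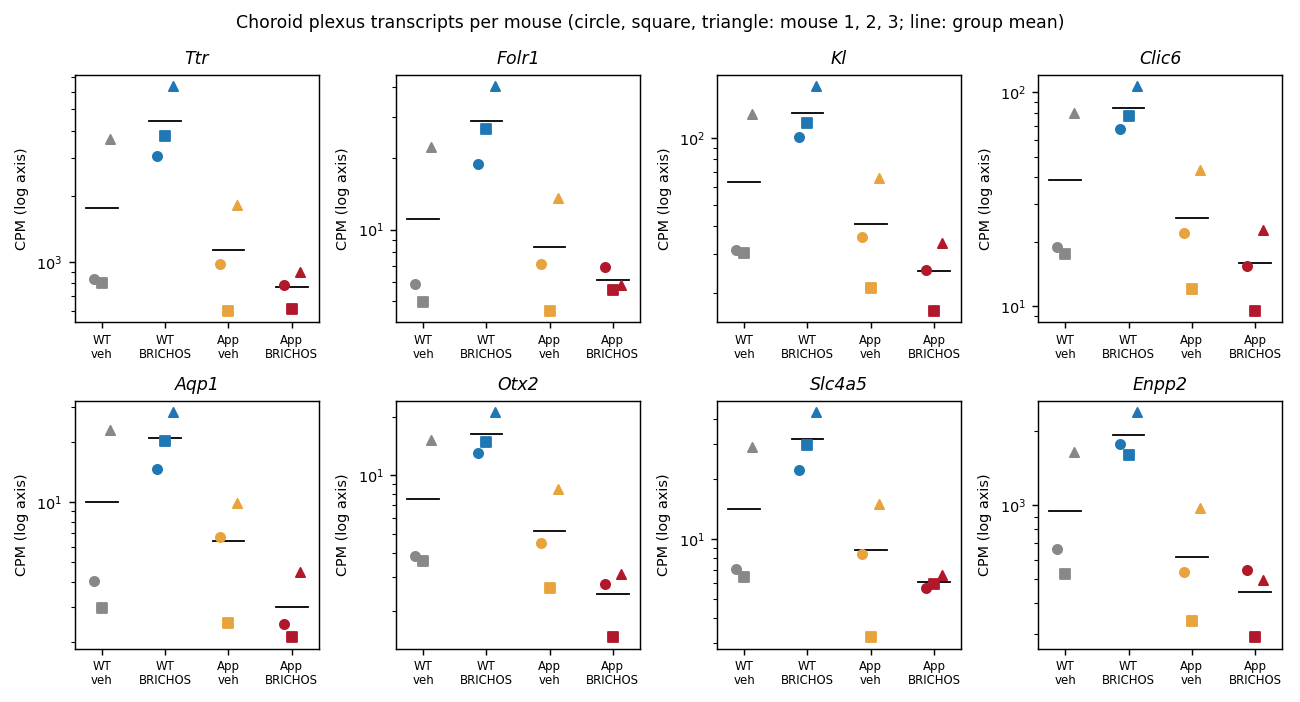
Level of each of the 8 choroid plexus transcripts in every library, as CPM on a log axis, with the 3 mice of each of the 4 groups as points and the group mean as a line. WT veh mouse 3 stands with the 3 treated WT mice in all 8 panels, for *Ttr* at 3675 CPM against 801.2 and 840.1 CPM in the other WT veh mice.

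The secreted carrier and the secreted enzyme were the most abundant members. *Ttr* (ENSMUSG00000061808, chromosome 18, 20665280 to 20674321, plus strand, GRCm38) encodes transthyretin, which carries thyroxine and, with retinol-binding protein, retinol in cerebrospinal fluid and blood. Its level was 840.1, 801.2 and 3675 CPM in WT veh mice 1 to 3, and 3048, 3760 and 6408 CPM in treated WT mice. In *App*NL-G-F mice it was 979, 598.4 and 1832 CPM with veh and 785.4, 610.5 and 904.3 CPM with rh Bri2 BRICHOS R221E. The treated WT libraries therefore overlapped the veh-treated WT libraries through WT veh mouse 3 alone, and lay above all 6 *App*NL-G-F libraries. *Enpp2* (ENSMUSG00000022425, chromosome 15, 54838901 to 54952892, minus strand) encodes autotaxin, a secreted lysophospholipase D that makes lysophosphatidic acid. Its level was 662, 524.1 and 1648 CPM in WT veh mice, 1776, 1603 and 2397 CPM in treated WT mice, 536.1, 339.7 and 971.8 CPM in *App*NL-G-F veh mice and 546.2, 290.3 and 495.7 CPM in treated *App*NL-G-F mice. The overlap in WT mice again came from veh mouse 3, which was above treated mouse 2 only.

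Among the membrane proteins that bind or process circulating factors, *Kl* and *Folr1* were measured. *Kl* (ENSMUSG00000058488, chromosome 5, 150952607 to 150993817, plus strand) encodes klotho, the co-receptor for FGF23, and had 31.19, 30.33 and 128.6 CPM in WT veh mice and 101, 116.8 and 171.4 CPM in treated WT mice. In *App*NL-G-F mice it had 35.7, 21.05 and 66.1 CPM with veh and 25.41, 16.62 and 33.65 CPM with the protein. *Folr1* (ENSMUSG00000001827, chromosome 7, 101858331 to 101870788, minus strand) encodes folate receptor alpha, which moves folate across the plexus epithelium into the cerebrospinal fluid. Its level was 5.88, 4.92 and 22.41 CPM in WT veh mice, 18.88, 26.61 and 40.59 CPM in treated WT mice, 7.18, 4.52 and 13.54 CPM in *App*NL-G-F veh mice and 6.96, 5.56 and 5.81 CPM in treated *App*NL-G-F mice. For both genes WT veh mouse 3 was above at least 1 treated WT mouse, and no *App*NL-G-F library reached the lowest treated WT library.

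The transport proteins gave the same picture at lower levels. *Clic6* (ENSMUSG00000022949, chromosome 16, 92485736 to 92541243, plus strand), of the chloride intracellular channel family, was at 18.95, 17.54 and 80.32 CPM in WT veh mice, 67.2, 77.98 and 107.5 CPM in treated WT mice, 21.93, 12 and 43.3 CPM in *App*NL-G-F veh mice and 15.41, 9.46 and 22.64 CPM in treated *App*NL-G-F mice. *Aqp1* (ENSMUSG00000004655, chromosome 6, 55336432 to 55348555, plus strand), the water channel of the epithelium's ventricular face, was at 4.03, 2.96 and 23.08 CPM, 14.66, 20.31 and 28.3 CPM, 6.73, 2.49 and 9.92 CPM, and 2.45, 2.11 and 4.45 CPM in these groups in the same order. *Slc4a5* (ENSMUSG00000068323, chromosome 6, 83219828 to 83304945, plus strand), a sodium bicarbonate cotransporter, was at 7.04, 6.46 and 28.96 CPM, 22.08, 29.59 and 43.22 CPM, 8.41, 3.21 and 14.88 CPM, and 5.67, 5.94 and 6.56 CPM. For these 3 genes WT veh mouse 3 lay inside the range of the treated WT mice, and the treated *App*NL-G-F mice lay below the treated WT mice without overlap.

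*Otx2* (ENSMUSG00000021848, chromosome 14, 48657677 to 48673819, minus strand), the transcription factor, was the least abundant member, at 3.83, 3.61 and 15.19 CPM in WT veh mice and 13.09, 14.91 and 21.15 CPM in treated WT mice. It was at 4.46, 2.62 and 8.51 CPM in *App*NL-G-F veh mice and 2.77, 1.47 and 3.09 CPM in treated *App*NL-G-F mice, above the 3-count level in each library. *Otx2* also marks retina and pineal gland, and of 5 markers listed for those tissues 0 passed the filter on low counts. Otx2 protein binds the core letters TAATCC. That core was searched on both strands, the reverse being GGATTA, in RefSeq promoter windows of GRCm38.p6 from 250 bases before to 50 bases after a transcript start. It was found in 2320 of 32851 windows (7.06%) of all genes, and 4 of the 8 members, *Kl*, *Aqp1*, *Slc4a5* and *Otx2*, were matched to windows. Of their 7 windows 1 held the core, that of 1 of 4 annotated starts of *Otx2* itself. This window lies within the gene and is shown with the windows of the other matched members. Capitals mark the core and the letters run 5′ to 3′ on the gene's strand.
Otx2, chr14:48665060-48665359, minus strand: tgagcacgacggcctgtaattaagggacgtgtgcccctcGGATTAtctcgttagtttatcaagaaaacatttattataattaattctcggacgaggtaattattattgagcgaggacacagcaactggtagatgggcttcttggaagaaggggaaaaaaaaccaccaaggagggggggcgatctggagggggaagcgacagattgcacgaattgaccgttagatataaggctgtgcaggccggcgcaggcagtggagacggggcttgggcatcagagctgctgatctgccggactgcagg
Kl, chr5:150952357-150952656, plus strand: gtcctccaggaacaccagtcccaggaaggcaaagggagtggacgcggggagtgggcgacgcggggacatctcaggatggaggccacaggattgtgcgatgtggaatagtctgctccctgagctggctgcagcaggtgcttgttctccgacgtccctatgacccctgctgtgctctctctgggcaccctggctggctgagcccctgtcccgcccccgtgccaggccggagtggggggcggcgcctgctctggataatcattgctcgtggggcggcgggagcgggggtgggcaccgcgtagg
Aqp1, chr6:55336049-55336348, plus strand: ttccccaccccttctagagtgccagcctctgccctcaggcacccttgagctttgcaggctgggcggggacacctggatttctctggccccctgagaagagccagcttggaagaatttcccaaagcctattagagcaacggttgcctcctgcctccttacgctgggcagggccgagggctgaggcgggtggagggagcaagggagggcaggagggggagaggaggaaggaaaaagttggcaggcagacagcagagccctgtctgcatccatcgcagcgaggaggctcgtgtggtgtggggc
Slc4a5, chr6:83237125-83237424, plus strand: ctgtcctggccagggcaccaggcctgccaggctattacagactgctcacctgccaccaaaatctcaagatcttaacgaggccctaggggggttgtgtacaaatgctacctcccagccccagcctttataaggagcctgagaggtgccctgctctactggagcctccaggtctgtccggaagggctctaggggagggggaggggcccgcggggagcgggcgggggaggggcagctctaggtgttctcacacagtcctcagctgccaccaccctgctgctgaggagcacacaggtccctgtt
The windows of *Kl*, *Aqp1* and *Slc4a5* carry no capitals, since these letters are not in them. In the list of 28 other choroid plexus genes, 3 of 26 matched genes held the core, against 8.14% of all 27025 genes with a window. A match is a stretch of letters and was not measured as a bound site.

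Per kilobase of exon, on the CPM per kb scale, *Ttr* was at 3715 ± 1493 (SD, n = 3) and *Enpp2* at 333 ± 72.2 in treated WT mice, while the other 6 lay between 3.88 and 21.5. The order of these levels was *Ttr*, *Enpp2*, *Clic6*, *Kl*, *Folr1*, *Aqp1*, *Slc4a5* and *Otx2* in treated WT and in treated *App*NL-G-F mice. Neighbours from *Clic6* to *Otx2* were separated by no more than the sum of their SDs in treated WT mice. In treated *App*NL-G-F mice the same scale gave 646 ± 125 for *Ttr*, 76.8 ± 23.5 for *Enpp2* and 0.579 ± 0.204 for *Otx2*.

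The proportions between the members were far steadier than their levels. Between the lowest and the highest of the 12 libraries, CPM differed 10.7-fold for *Ttr*, 10.3-fold for *Kl*, 8.97-fold for *Folr1* and 14.4-fold for *Otx2*, and 8.26-fold to 13.5-fold for the rest. Divided by the *Ttr* count of the same library, *Kl* ranged from 26.8 to 37.9 counts per 1000 *Ttr* counts, a 1.42-fold span. The span was 1.49-fold for *Folr1* (6.1 to 9.11 counts per 1000), 1.62-fold for *Clic6* (15.5 to 25.03), 1.81-fold for *Slc4a5* (5.37 to 9.74) and 1.93-fold for *Otx2* (2.41 to 4.65). *Aqp1*, at 3.12 to 6.87 counts per 1000 *Ttr* counts, and *Enpp2*, at 374 to 788, had the widest spans of 2.2-fold and 2.11-fold. Within the WT veh group alone *Ttr* differed 4.59-fold between mice and *Aqp1* 7.79-fold. These ratios are a description over libraries that share depth and *Ttr* counts, and no test was applied.

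**Figure D2:**
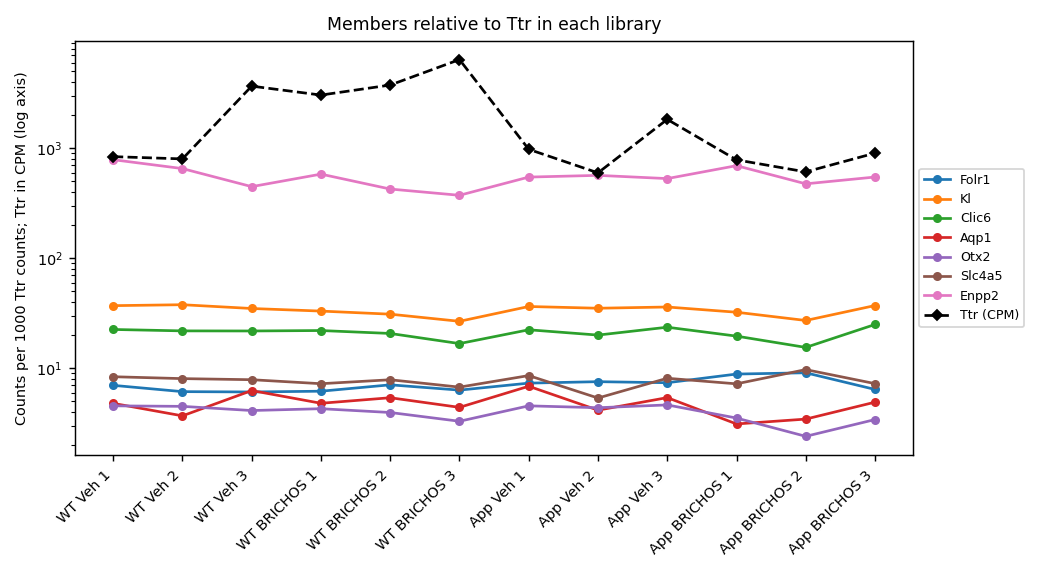
Counts of each of the other 7 transcripts per 1000 *Ttr* counts in the 12 libraries, on a log axis, coloured by transcript. The dashed line is *Ttr* itself in CPM. The spread within a gene is 1.42-fold for *Kl* to 2.2-fold for *Aqp1*, while *Ttr* CPM itself differed 10.7-fold over the same libraries.

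*Enpp2* is also made by oligodendrocytes, which the other 7 members are not known to mark. Its ratio to *Ttr* was highest in WT veh mouse 1 (788 per 1000), treated *App*NL-G-F mouse 1 (695), WT veh mouse 2 (654) and treated WT mouse 1 (583), and lowest in treated WT mouse 3 (374). These extremes did not follow the groups. The part of oligodendrocyte RNA in the *Enpp2* level was not tested.

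The genes whose profile over the 12 libraries was most like that of *Ttr*, by Pearson's r of log2 CPM, were *1500015O10Rik* (r = 0.995), *Kcne2* (0.993), *Htr2c* (0.992), *Kl* (0.99), *Spint2* (0.99), *Folr1* (0.989), *Cldn2*, *Slc29a4*, *Slc4a10* and *Col8a1*. Among 15424 ranked genes the other members were at rank 14 (*Clic6*), 18 (*Slc4a5*), 35 (*Otx2*), 36 (*Aqp1*) and 38 (*Enpp2*). After the group means were subtracted, so that only differences between mice of a group counted, *Kl* was at rank 3 (r = 0.985), *Folr1* at 8, *Otx2* at 13, *Clic6* at 20, *Aqp1* at 25, *Slc4a5* at 26 and *Enpp2* at 63 (r = 0.939). Pooled over the 4 groups, the likeness is thus present among mice that had the same genotype and treatment. Groups with a wider spread between mice weigh more in it. In treated *App*NL-G-F mice alone *Kl*, *Clic6*, *Aqp1* and *Otx2* kept the order of *Ttr* over the mice, whereas *Folr1*, *Slc4a5* and *Enpp2* did not. An r of at least 0.9 on this measure was reached by 109 of 15424 genes (0.707%). *Car14*, a carbonic anhydrase on the list of other choroid plexus genes, had r = 0.11.

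The first treatment comparison asks what rh Bri2 BRICHOS R221E does in mice without amyloid pathology. All 8 transcripts were on average higher in treated than in veh-treated WT mice, by log2 fold changes of 1.03 to 1.39 with a median of 1.12, against a median of -0.0036 over all tested genes. By edgeR's quasi-likelihood test 3 of 8 had an unadjusted p-value under 0.05, where 11.4% of all tested genes did so in either direction, and 0 of 8 passed the Benjamini-Hochberg adjustment, as did 0.0% of all genes. *Folr1* had a mean of 28.7 ± 11.01 CPM (SD, n = 3) against 11.07 ± 9.83 CPM, a log2 fold change of 1.39 (SE 0.534, edgeR adjusted p = 0.372). *Ttr* had 4405 ± 1771 against 1772 ± 1648 CPM, a log2 fold change of 1.31 (SE 0.577, edgeR adjusted p = 0.424). *Enpp2* had 1925 ± 417 against 945 ± 613 CPM, a log2 fold change of 1.03 (SE 0.452, edgeR adjusted p = 0.425). The other 5 had log2 fold changes of 1.04 (*Kl*, SE 0.547), 1.09 (*Aqp1*, SE 0.67), 1.12 (*Clic6*, SE 0.58), 1.13 (*Otx2*, SE 0.535) and 1.17 (*Slc4a5*, SE 0.57). In 0 of 8 did the treated libraries lie wholly above the veh libraries, which 8.36% of all tested genes did.

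This count rested on single libraries. Without WT veh mouse 3, 8 of 8 transcripts had an unadjusted p-value under 0.05 (median log2 fold change 2.22, range 1.7 to 2.6), with edgeR adjusted p = 0.0642 to 0.101. Without WT veh mouse 1, WT veh mouse 2 or treated WT mouse 3 the count was 0 of 8. Leaving out *App*NL-G-F libraries changes the shared estimate of spread and the TMM factors, while the median log2 fold change stayed at 1.12 to 1.13. The count was 1 of 8 without *App*NL-G-F veh mouse 1 or treated mouse 3, and 5 of 8 without *App*NL-G-F veh mouse 2 or 3.

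**Figure D3:**
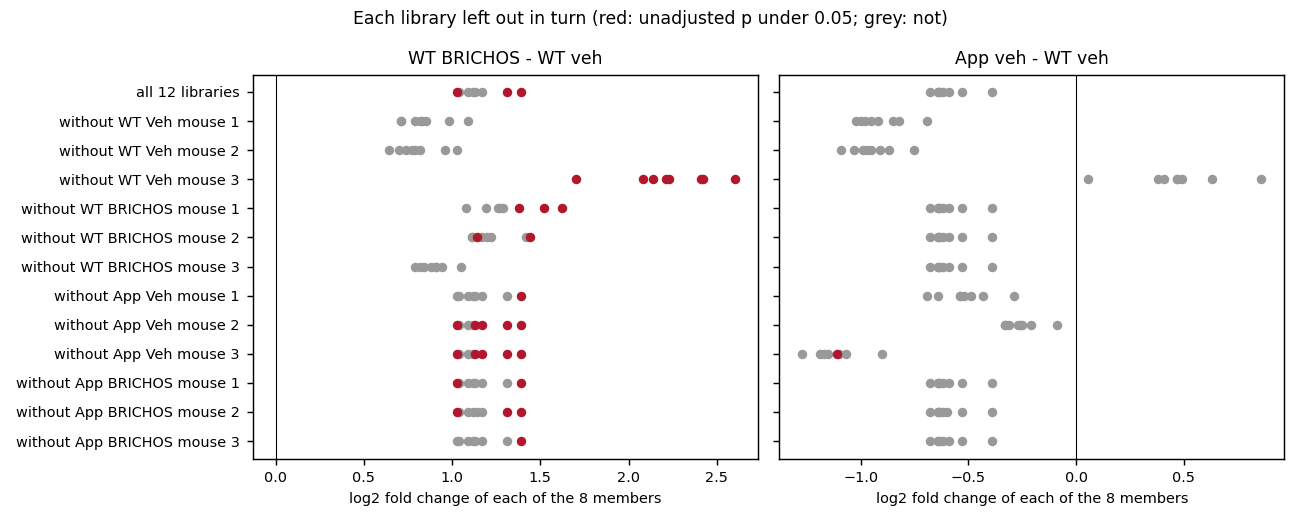
Log2 fold changes of the 8 transcripts when each library in turn is left out of the fit, beside the fit with all libraries. Leaving out WT veh mouse 3 moves the median of the WT treatment comparison from 1.12 to 2.22, and takes the comparison of veh-treated strains to a median of 0.47.

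Between the veh-treated strains, which asks about the amyloid genotype alone, the 8 transcripts were on average lower in *App*NL-G-F mice by log2 fold changes of -0.39 to -0.68. None of 8 had an unadjusted p-value under 0.05 by edgeR (adjusted p = 0.307 to 0.608), while 46.6% of all tested genes did and 37.0% passed the adjustment. The *App*NL-G-F veh libraries did not lie wholly below the WT veh libraries for any of the 8, which 25.3% of all genes did. Without WT veh mouse 3 the 8 log2 fold changes were above 0, from 0.054 for *Enpp2* to 0.86 for *Aqp1*, and 0 of 8 passed. Without *App*NL-G-F veh mouse 3 the count was 1 of 8, with a median log2 fold change of -1.13.

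In *App*NL-G-F mice the treated group was on average lower than the veh group, by log2 fold changes of -0.45 for *Folr1* to -1.09 for *Aqp1*. By edgeR 0 of 8 had an unadjusted p-value under 0.05 (adjusted p = 0.581 to 0.837), against 10.8% of all tested genes, of which 0.00648% passed the adjustment. *Otx2*, with 2.45 ± 0.86 against 5.2 ± 3.01 CPM, had the lowest p-value of the 8 at a log2 fold change of -1.08 (SE 0.607). Treated libraries lay wholly below veh libraries for 0 of 8, as 7.09% of all genes did. Without *App*NL-G-F veh mouse 3 the median log2 fold change was -0.08, and *Folr1* (0.063), *Slc4a5* (0.058) and *Enpp2* (0.02) changed sign. The count was 1 of 8 without *App*NL-G-F veh mouse 2 and 2 of 8 without WT veh mouse 3.

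**Figure D4:**
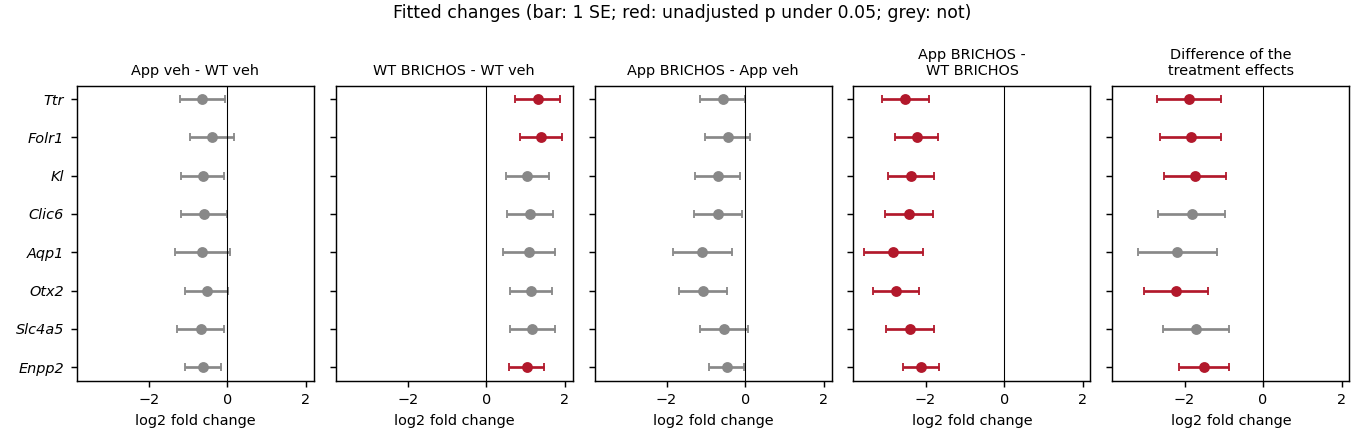
Log2 fold change of each of the 8 transcripts with its SE in each comparison of the 4 groups. Values are above 0 for treatment in WT mice (1.03 to 1.39), below 0 for treatment in *App*NL-G-F mice (-0.45 to -1.09), and between -2.12 and -2.82 for treated *App*NL-G-F against treated WT mice.

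On average the treatment effects had opposite signs in the strains, and their difference, the effect in *App*NL-G-F mice minus that in WT mice, was tested within the same model. It was below 0 for 8 of 8 transcripts (median -1.83 on the log2 scale), and 5 of 8, *Otx2*, *Folr1*, *Enpp2*, *Ttr* and *Kl*, had an unadjusted p-value under 0.05 where 14.8% of all genes did. *Otx2* had a difference of -2.22 (SE 0.808, edgeR adjusted p = 0.25) and *Ttr* one of -1.88 (SE 0.81, edgeR adjusted p = 0.316). None of 8 passed the adjustment (adjusted p = 0.25 to 0.369), which 0.00648% of all genes did. The count was 8 of 8 without WT veh mouse 3 (adjusted p = 0.052 to 0.0958) and without *App*NL-G-F veh mouse 2, and 0 of 8 without *App*NL-G-F veh mouse 3. It was 1 of 8 without WT veh mouse 1, WT veh mouse 2, treated WT mouse 3 or treated *App*NL-G-F mouse 2, and 3 of 8 without treated WT mouse 2 or treated *App*NL-G-F mouse 1.

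The comparison in which the 8 transcripts passed the adjustment was that of treated *App*NL-G-F with treated WT mice, which was added after the levels had been seen and involves neither veh group. *Ttr* had 767 ± 148 CPM (SD, n = 3) in treated *App*NL-G-F against 4405 ± 1771 CPM in their treated WT counterparts, a log2 fold change of -2.52 (SE 0.6, edgeR adjusted p = 0.00558). *Otx2* had 2.45 ± 0.86 against 16.4 ± 4.23 CPM, a log2 fold change of -2.75 (SE 0.591, edgeR adjusted p = 0.00308), and *Aqp1* had the largest of the 8 at -2.82 (SE 0.742, adjusted p = 0.00975). In all, 8 of 8 were lower with an adjusted p-value under 0.05 by edgeR, where 42.5% of all tested genes passed in either direction and 50.1% had an unadjusted p-value under 0.05. For 8 of 8 the 3 treated *App*NL-G-F libraries were below the 3 treated WT libraries, as they were for 26.4% of all genes. This comparison shares its libraries with the treatment comparisons of each strain, and its difference from the comparison of veh-treated strains is the contrast given above, which did not pass the adjustment.

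The 28 other choroid plexus genes, among them the tight junction gene *Cldn1*, the potassium channel subunit *Kcne2* and the keratin *Krt18*, were listed beside the 8. In treated WT mice 28 of 28 were on average higher (median log2 fold change 1.04), and 13 of 28 had an unadjusted edgeR p-value under 0.05, all higher, with 0 after adjustment. That count was 27 of 28 without WT veh mouse 3, but 4 without WT veh mouse 1, 2 without WT veh mouse 2 and 1 without treated WT mouse 3. *Krt18* had 8.69 ± 4.38 against 3.06 ± 2.2 CPM (SD, n = 3), a log2 fold change of 1.53 (edgeR adjusted p = 0.299). *Kcne2* had 30.5 ± 11.3 against 12.5 ± 10.9 CPM, a log2 fold change of 1.3 (edgeR adjusted p = 0.403). Of the 28, 27 were on average lower in *App*NL-G-F veh than in WT veh mice, where 1, *Car14*, had an unadjusted p-value under 0.05 (log2 fold change -0.93, edgeR adjusted p = 0.0736). The median log2 fold change of the list was -0.7 in that comparison, and it turned to 0.38 without WT veh mouse 3, with 1 higher and 1 lower at that threshold. The count was 8 without *App*NL-G-F veh mouse 3, 4 without WT veh mouse 2, 2 without WT veh mouse 1, treated WT mouse 3 or treated *App*NL-G-F mouse 3, and 0 without *App*NL-G-F veh mouse 1 or 2. In *App*NL-G-F mice 26 of 28 were on average lower with treatment (median log2 fold change -0.57, and -0.089 without *App*NL-G-F veh mouse 3) and 0 had an unadjusted p-value under 0.05, or at most 2 with 1 library left out. The contrast of the treatment effects was below 0 for 28 of 28, with 13 at an unadjusted p-value under 0.05 and 0 after adjustment, where these counts were 26 and 4 without WT veh mouse 3. Omission of another library moved that 13 to between 3 and 20, 3 being without WT veh mouse 1, treated WT mouse 3, *App*NL-G-F veh mouse 3 or treated *App*NL-G-F mouse 2. Treated *App*NL-G-F mice were lower than treated WT mice for 28 of 28, of which 27 passed the adjustment, beside 42.5% of all tested genes in either direction. Of all tested genes 11.4% had an unadjusted p-value under 0.05 for treatment in WT mice, in either direction. That share was 46.6% between veh-treated strains, 10.8% for treatment in *App*NL-G-F mice and 14.8% for the contrast.

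Markers listed for other cells in and around the ventricles and the brain surface were also on average higher in treated WT mice. Their summed levels did not overlap between the WT groups. Of 18 genes of ependymal cells and motile cilia, which line the ventricles and beat the fluid along, 16 were tested. Of these 14 were higher in treated than in veh-treated WT mice at an unadjusted edgeR p-value under 0.05, with 0 after adjustment. Of all tested genes 11.4% reached that p-value in either direction. For 11 of the 18 listed genes the treated libraries lay wholly above the veh libraries, as they did for 8.36% of all tested genes. *Foxj1*, the master regulator of motile cilia, had 18.03 ± 4.42 against 8.67 ± 2.11 CPM (SD, n = 3), a log2 fold change of 1.06 (edgeR adjusted p = 0.239). The list summed to 27.6 to 43.02 CPM in WT veh, 53.3 to 98.6 CPM in treated WT, 18 to 29.7 CPM in *App*NL-G-F veh and 17.4 to 23.6 CPM in treated *App*NL-G-F mice, so here no veh library reached the treated WT mice. The count of 14 was 12 without WT veh mouse 3, 9 without WT veh mouse 1, 7 without WT veh mouse 2 and 5 without treated WT mouse 3. After the group means were subtracted, the r with *Ttr* of the 16 tested genes ran from -0.248 to 0.953, with *Foxj1* at 0.66. Part of this list thus followed *Ttr* closely and part did not. Whether its genes were counted from ependymal cells or from the plexus itself was not tested. Meningeal fibroblast markers were higher in treated WT mice for 6 of 8 at an unadjusted edgeR p-value under 0.05, led by *Col1a2* (11.8 ± 2.24 against 4.47 ± 1.3 CPM, edgeR adjusted p = 0.19). They summed to 14.9 to 25.3 CPM with veh and 28.9 to 69.1 CPM with treatment. *Pdgfra* alone had 2.83, 11.5 and 28.5 CPM in treated WT mice 1 to 3, against 2.31 to 4.84 CPM in WT veh mice. The part of cells other than fibroblasts in its level was not tested. Border macrophage markers, for CD11b-positive cells of the meninges, vessels and plexus, were higher for 5 of 7 (median log2 fold change 0.49) and summed to 382 to 448 CPM with veh and 509 to 619 CPM with treatment. Without WT veh mouse 3 the counts were 5 of 8 meningeal and 5 of 7 border macrophage markers. Counts without another library are not given for these lists, so their dependence on other single mice is not shown here.

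Of the other brain cells, mural markers were on average higher in treated than in veh-treated WT mice for 8 of 8. They did so without overlap for 5 of 8, beside 8.36% of all tested genes, and summed to 251 to 329.5 CPM against 207 to 233 CPM. In treated against veh-treated WT mice 0 of 8 astrocyte, 0 of 8 oligodendrocyte, 0 of 8 endothelial and 0 of 8 neuronal markers had an unadjusted p-value under 0.05, and 1 of 8 mural (higher) and 1 of 8 microglial markers (lower) did, beside 11.4% of all tested genes. With 1 library left out the mural count was between 0, without WT veh mouse 1 or 2 or treated WT mouse 1 or 3, and 4, without treated *App*NL-G-F mouse 2. Summed over the list, astrocyte markers were at 434 to 807 CPM in the WT libraries, 1439 to 4617 CPM in *App*NL-G-F veh and 664 to 1929 CPM in treated *App*NL-G-F mice. Oligodendrocyte markers summed to 9708 to 17000 CPM in WT veh, 4166 to 15720 CPM in treated WT, 3250 to 5676 CPM in *App*NL-G-F veh and 4528 to 6235 CPM in treated *App*NL-G-F mice. In the comparison of treated strains most lists had members that were lower at an adjusted edgeR p-value under 0.05, namely 15 of 16 ependymal, 8 of 8 mural, 7 of 8 meningeal, 7 of 8 neuronal, 6 of 7 border macrophage, 6 of 8 microglial and 6 of 8 endothelial markers. In the same comparison 0 of 8 astrocyte and 0 of 8 oligodendrocyte markers were lower at that threshold, and 42.5% of all tested genes passed it in either direction. Between veh-treated strains 7 of 8 microglial, 6 of 8 endothelial, 6 of 8 neuronal and 5 of 7 border macrophage markers were already lower at it. So were 2 of 8 mural, 2 of 8 oligodendrocyte, 1 of 8 meningeal, 1 of 16 ependymal and 0 of 8 choroid plexus transcripts. Higher there were 8 of 8 astrocyte, 1 of 8 microglial and 1 of 8 endothelial markers, and 37.0% of all tested genes passed in either direction. The part of dissection, digestion or bead enrichment in these levels was not tested.

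**Figure D5:**
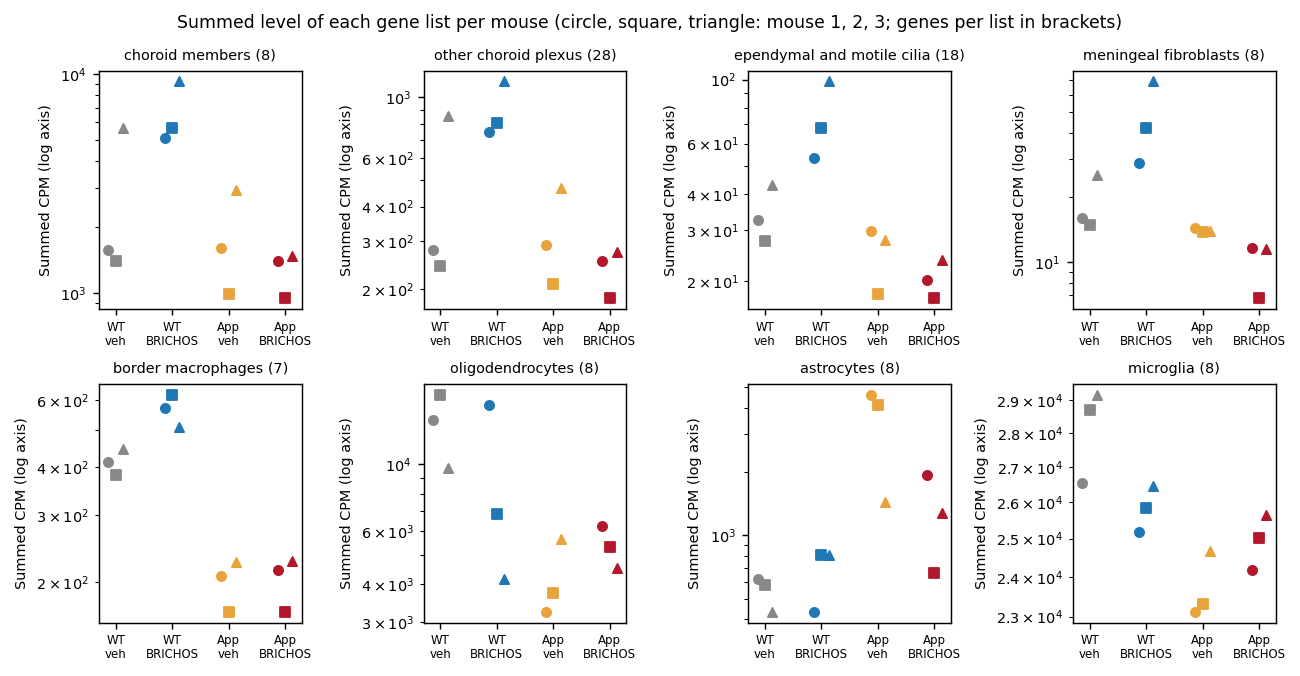
Summed CPM of the 8 choroid plexus transcripts and of the other marker lists in each of the 12 libraries, on a log axis, by group. The choroid plexus sums run from 942 to 9217 CPM, whereas the microglial sums stay within 23120 to 29160 CPM.

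Genes with a profile like that of *Ttr* within groups, pooled over the 4 groups, also made up part of the genes called in WT mice. Of 1009 genes with an unadjusted p-value under 0.05 that were higher in treated WT mice, *Ttr* apart, 53 (5.25%) reached an r of at least 0.9 with *Ttr* after the group means were subtracted, and of 745 lower genes 0 did, compared with 0.707% of all ranked genes. In treated against veh-treated *App*NL-G-F mice 2 of 490 higher and 2 of 1183 lower genes reached it. These shares are descriptions over genes, which are not independent of each other.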

How the data were processed

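RNA of CD11b-positive cells of 12 mice was sequenced from stranded poly(A) libraries. The authors trimmed reads with Cutadapt, aligned them to GRCm38 with STAR (2.6.1d in the submitters' processing notes, another version in the paper's methods), and deposited raw featureCounts (1.5.1) counts per gene without normalization. The strand setting and the treatment of multiply mapped reads are not given in the sources used here. *Folr1*, *Clic6*, *Otx2* and *Enpp2* overlap other annotated genes, so their counts are less certain.

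Libraries were grouped by their titles. Ensembl IDs were matched to GENCODE M21 symbols (55141 of 55487). With edgeR 4.0.16 in R 4.3.3, genes passing filterByExpr (minimum count 10) were normalized by TMM and fitted with 1 mean per group over all 12 libraries, and contrasts were tested with glmQLFTest. Adjusted p-values are Benjamini-Hochberg over 15425 genes. The study's cutoff was an unadjusted p under 0.05 with an absolute log2 fold change over 1. Log2 CPM had a prior count of 2, and CPM per kb used exon union lengths. The test was checked on simulated data. Members and lists were chosen with earlier results of these data known. Named genes were the 8 members, the 10 genes most like *Ttr* and, per list, those with the lowest p-values under 0.05 and the defining markers of other cells that make a member. A further gene taken by this rule is not reported here. Nothing states separate handling of the mice beyond their labels, so p-values measure the spread between these samples. Alternatives were DESeq2 1.42.0 (size factors, Wald test), other filters, the compared groups alone, a replicate block and the omission of each library.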

Additional observations from a re-analysis of the deposited data

Results flagged for a closer look

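For 5 of the 8 choroid plexus transcripts the effect of rh Bri2 BRICHOS R221E differed between the strains in a test of the difference itself, at an unadjusted edgeR p-value under 0.05. The log2 fold change in *App*NL-G-F mice minus that in WT mice was -1.88 for *Ttr*, -1.84 for *Folr1*, -1.74 for *Kl*, -2.22 for *Otx2* and -1.5 for *Enpp2*. None passed the adjustment over all genes (adjusted p = 0.25 to 0.336 for these 5), and without *App*NL-G-F veh mouse 3 the count was 0 of 8.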

How the results depend on the processing

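Of 752 log2 fold changes of single transcripts under an alternative, 645 kept direction and side of the unadjusted threshold, 52 lost it, 44 gained it and 11 changed sign. The 645 include the main fit with the added cutoff of an absolute log2 fold change over 1. That cutoff changed no value, and every called transcript already exceeded it, so it could only count as kept. The 11 that changed sign came from leaving out 1 library. Between veh-treated strains the values without WT veh mouse 3 were 0.47 (*Ttr*), 0.63 (*Folr1*), 0.41 (*Kl*), 0.49 (*Clic6*), 0.86 (*Aqp1*), 0.47 (*Otx2*), 0.38 (*Slc4a5*) and 0.054 (*Enpp2*), and the lowest values, without *App*NL-G-F veh mouse 3, were in the same order -1.17, -0.9, -1.15, -1.19, -1.1, -1.07, -1.27 and -1.11. For treatment in *App*NL-G-F mice the values without *App*NL-G-F veh mouse 3 were 0.063 (*Folr1*), 0.058 (*Slc4a5*) and 0.02 (*Enpp2*), and the lowest, without *App*NL-G-F veh mouse 2, -0.75, -0.94 and -0.76. Over all omissions of 1 library, the count of 8 transcripts with an unadjusted p under 0.05 was 0 to 1 between veh-treated strains, 0 to 8 for treatment in WT mice, 0 to 2 for treatment in *App*NL-G-F mice and 0 to 8 for the contrast of treatment effects. With no filter on low counts it was 7 in WT mice, 1 in *App*NL-G-F mice and 8 for the contrast. With DESeq2's Wald test it was 1 in *App*NL-G-F mice and 2 for the contrast, and with only the compared groups fitted it was 1 in *App*NL-G-F mice. The cause was not tested. The 8 calls between treated strains were kept at an adjusted p under 0.05 under every alternative run (largest adjusted p 0.0393).

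Equal replicate numbers were not taken as pairs, since their correlations of deviations ranged from -0.0148 to 0.227 and did not exceed 0.1 in every pair of any comparison. With the replicate block the count was 1 between veh-treated strains, 8 for treatment in WT mice, 1 in *App*NL-G-F mice and 8 for the contrast, with 0 at an adjusted p under 0.05. In both the WT treatment and the veh strain comparison 5 of 6 libraries correlated best with their own number.

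Over all genes, requiring an absolute log2 fold change over 1 as well left 1876 of 7184 genes between veh-treated strains, 392 of 1755 for treatment in WT mice, 546 of 1673 in *App*NL-G-F mice, 1039 of 2279 for the contrast and 2666 of 7729 between treated strains. The 1755 genes fell to 1061 without WT veh mouse 2 and 1118 without treated WT mouse 3. The 1673 genes fell to 1099, 1088 and 1091 without *App*NL-G-F veh mouse 1, veh mouse 2 and treated mouse 2. By Spearman's rho 3 of the 10 genes most like *Ttr* were shared with Pearson's r.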
